A study of Mus musculus with 19 samples.

Results

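The genes described here encode the mitochondrial respiratory chain (complexes I to IV) and ATP synthase (complex V). They were chosen by gene name (prefixes mt-Nd, mt-Co, mt-Atp and mt-Cytb, and Nduf, Uqcr, Cox4 to Cox8, Atp5 and Sdha to Sdhd) and by a level of at least 1 CPM in at least 3 of the 19 libraries. CPM, counts per mega-count, is a gene's count scaled to the same library total in every library. Of the 53656 gene names in each table, 97 matched the names and 86 passed the level. Of these, 78 are nuclear genes (36 in complex I, 4 in complex II, 8 in complex III, 13 in complex IV and 17 in complex V) and 8 lie on the mitochondrial chromosome. The level chose the members, so a description of which genes are expressed follows from the choice. Just inside the level, Cox6b2 reached 1.81 CPM in its third-highest library and mt-Nd3 reached 3.67 CPM. Just outside it, Cox7a1 reached 0.519 CPM and mt-Co3 0.382 CPM. The other 9 names outside it were mt-Nd4l, mt-Atp6, mt-Atp8, mt-Co2, Cox4i2, Cox7b2, Cox8b, Cox8c and Ndufa4l2. A few members carry a complex name without being one of its classical subunits. Ndufa4 is now counted with complex IV, Cox7a2l helps to join complexes into supercomplexes, and Atp5s and Atp5sl are not structural subunits of ATP synthase.

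The respiratory chain passes electrons from NADH and succinate to oxygen and pumps protons across the inner mitochondrial membrane, and ATP synthase uses the proton gradient to make ATP. Its subunits come from both genomes: the mitochondrial chromosome encodes core subunits of complexes I, III, IV and V, while the nucleus encodes the other subunits and the whole of complex II, which is also an enzyme of the citric acid cycle. Naive T cells rest on oxidative metabolism, activated T cells build mitochondria while they switch on glycolysis, and T cells held in tumours are known for impaired mitochondria.

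RNA was sequenced from C57BL/6 mouse CD8 T cells with a transgenic receptor, SV40-I (specific for the SV40 large T antigen) or OT-I (specific for ovalbumin). The ex vivo groups had 3 libraries each. The naive group held SV40-I cells low for CD44. The OT-I group (Ly5.1) and the group called late SV40-I here (Thy1.1) came out of malignant liver lesions 20 to 21 days on. The marker-high and marker-low groups were SV40-I cells (Thy1.1) taken from lesions at day 8 or 9 and sorted as high or low for all of PD1, LAG3 and CD39. The cultured groups had 2 libraries each and were naive SV40-I cells that were stimulated through CD3 and CD28, transduced with a retrovirus for GFP alone (GFP) or TOX with GFP (TOX-GFP), and grown in IL-2. TOX is a nuclear factor tied to T cell exhaustion. Splenocytes are given as the source of all 19 libraries, and headings of the marker-high and marker-low tables carry the letters WT and KO while the labels give no genotype, so tissue and genotype of these groups are not certain. Whether replicates came from different mice or cultures is not labelled, so each p-value reflects spread among libraries that may be technical.

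Library totals ran from 37006508 to 54195918 counts. The 10 T cell identity markers averaged at least 1 CPM in every group, and their sum ran from 8554 CPM in TOX-GFP 1 to 38886 CPM in naive 2. Markers of other cells were uneven: the 12 hepatocyte markers summed to 17.4, 985 and 1678 CPM in OT-I 1 to 3 and to 42.7, 1379 and 37.7 CPM in late SV40-I 1 to 3, and to at most 59.2 CPM in other libraries. The 9 macrophage markers summed to 985 to 2230 CPM in marker-high and to 106 to 2303 CPM in marker-low libraries. The 8 erythroid and platelet markers summed to 1295 to 3611 CPM in OT-I and to 98.9 to 784 CPM in late SV40-I libraries, with 1370 CPM in marker-high 3. In culture, 10 of 12 hepatocyte markers were at 0 in both TOX-GFP libraries and 8 of 12 in both GFP libraries, Alb among the former. Libraries hold RNA of cells in bulk, so fewer cells of a type and less RNA per cell cannot be told apart.

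The mitochondrial genes fell into those with many counts and those with hardly any. Mean levels per length over the 7 groups (RPKM, CPM per kilobase of summed exons) were 785 for mt-Co1, 262 for mt-Cytb and 197 for mt-Nd1, and between 7.04 for mt-Nd3 and 29.9 for mt-Nd5 among the other complex I genes. mt-Co1 encodes the catalytic subunit of complex IV, mt-Cytb the core of complex III, and mt-Nd1 to mt-Nd6 membrane subunits of complex I. In contrast, mt-Co2, mt-Atp6, mt-Nd4l and mt-Atp8 never passed 0.083 CPM in any library, and mt-Co3 reached 0.425 CPM. Some of these genes have copies in the nuclear genome, and the deposited counts were made without an option for reads that match several places.

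Every window of 50 bases, the read length, was compared between each mitochondrial transcript and the annotated transcripts of other genes (GENCODE M21, GRCm38). A run of 7 annotated pseudogenes at chr1:24611535-24616197 (minus strand) held 50-base windows of 7 mitochondrial genes. Every window of mt-Co2 was shared with another gene, as were 99.9% of mt-Co3, 99.5% of mt-Atp6, 98.8% of mt-Nd4l, 98.0% of mt-Nd3, 62.2% of mt-Nd4 and 51.1% of mt-Co1. They made up 8.2% of mt-Nd2, 7.6% of mt-Nd5 and none of mt-Nd1, mt-Nd6 and mt-Cytb. The counted chr1 copies themselves reached at most 0.747 CPM. mt-Atp8 shared no window with an annotated transcript although it had no counts, and the chr1 interval between the copies of mt-Atp6 and mt-Co2 has no annotated transcript to compare. Windows were single stretches of 50 bases while the counts were of read pairs, so a shared window need not make a pair ambiguous. Whether the shared windows set the low counts was not tested. The start of mt-Co2 (chrM:7013-7696, plus strand) and of its chr1 copy Gm28661 (chr1:24614885-24615565) is shown because the pair had 0 differences over 681 bases. No base is in capitals, since none differs.
mt-Co2: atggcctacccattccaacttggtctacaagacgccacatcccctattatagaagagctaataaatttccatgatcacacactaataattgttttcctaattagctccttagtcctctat
Gm28661: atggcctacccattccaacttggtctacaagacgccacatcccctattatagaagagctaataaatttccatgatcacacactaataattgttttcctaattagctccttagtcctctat

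The levels of mt-Co1, mt-Nd3 and mt-Nd4 thus rest at least in part on shared sequence, and how far this changes their size was not tested. Those of mt-Cytb and mt-Nd1 rest on sequence with no annotated copy. mt-Nd6 lies on the minus strand at chrM:13552-14070 and overlaps the end of mt-Nd5 at chrM:11742-13565. Counting used no strand setting per the headers, so transcripts of opposite strands were not told apart. Among nuclear members, 42 of 77 shared no window with another gene, and 7 shared over 30%, led by Atp5l with 68.5% and Atp5h with 47.9%.

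Together the 8 mitochondrial members took 0.0321% to 0.401% of a library's counts, and the 78 nuclear members 1.23% to 2.20%. Summed mitochondrial levels were 1441, 1578 and 1495 CPM in naive libraries and 1535, 2322 and 1741 CPM in OT-I libraries. They were 321, 947 and 755 CPM in late SV40-I libraries, below every naive and OT-I library. Marker-high libraries had 849, 1311 and 949 CPM and marker-low libraries 1255, 798 and 1506 CPM. Both day 8 to 9 groups overlapped the range of late SV40-I. The sums were highest in culture, with 3064 and 3180 CPM in TOX-GFP and 2860 and 4010 CPM in GFP libraries.

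**Figure D1:**
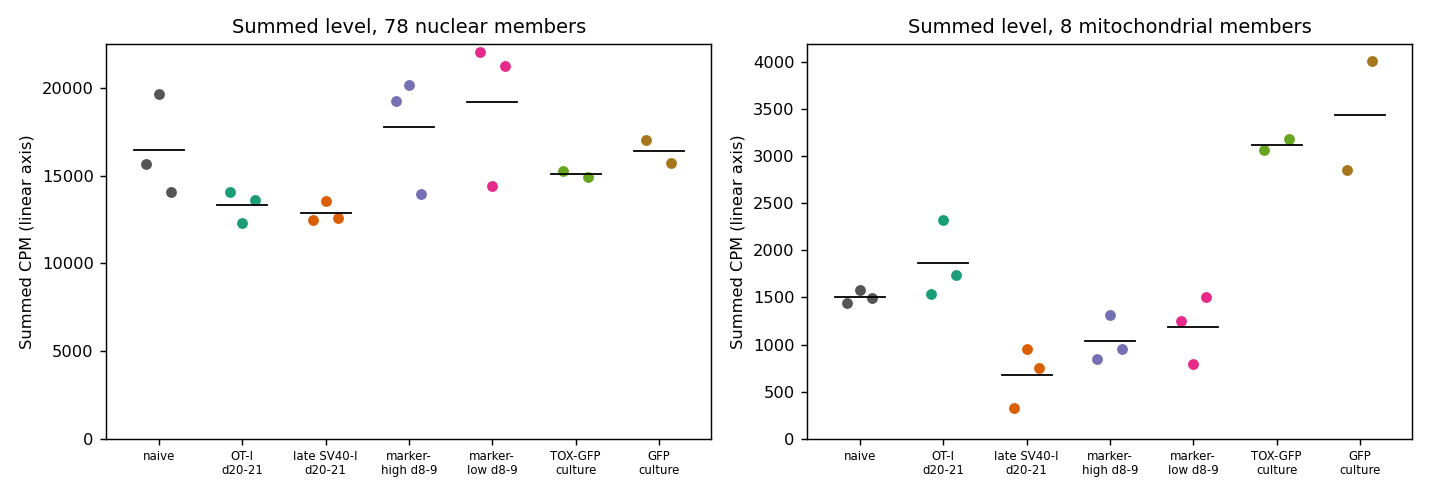
Summed CPM (linear axis) of the 78 nuclear members (left) and the 8 mitochondrial members (right) in each of the 19 libraries; points are libraries and bars are group means. The 3 late SV40-I libraries sit between 321 and 947 CPM in the right panel, below every naive and OT-I library, while the 4 cultured libraries lie at or above 2860 CPM.

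The nuclear sum followed another order. Its group means were 13334 ± 914 CPM (SD, n = 3) in OT-I and 12846 ± 589 CPM (SD, n = 3) in late SV40-I libraries, which overlapped. Means were 16438 ± 2875 CPM in naive, 17775 ± 3371 CPM in marker-high and 19212 ± 4197 CPM in marker-low libraries (SD, n = 3 each), with wide overlap. The log2 ratio of the mitochondrial to the nuclear sum was -5.28, -3.84 and -4.06 in late SV40-I libraries against -3.20, -2.41 and -2.97 in OT-I libraries. These ranges did not overlap. Marker-high libraries had ratios of -4.50, -3.94 and -3.88, and those of marker-low cells had -4.13, -4.17 and -3.82, all below every naive library and within or next to the late SV40-I range. The ratio was -3.44 ± 0.20 in naive libraries (SD, n = 3), -2.27 ± 0.06 in TOX-GFP and -2.27 ± 0.43 in GFP libraries (SD, n = 2 each).

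mt-Co1 made up 76.5% to 90.7% of the mitochondrial sum in every ex vivo library but 47.8% to 52.6% in the cultured libraries, and these ranges did not overlap. The complexes' shares of the nuclear sum differed between some groups. Complex V, whose Atp5a1 and Atp5b form the catalytic head of ATP synthase, took 39.8% ± 3.4 in late SV40-I, 41.9% ± 4.1 in naive, 46.7% ± 4.5 in marker-low and 46.1% ± 1.1 in marker-high libraries (SD, n = 3 each). Late SV40-I (36.4% to 43.2%) did not overlap marker-high (45.1% to 47.3%), and overlapped naive and, by a narrow margin, marker-low. Complex IV took 8.72% to 9.77% in OT-I and 12.4% to 13.6% in GFP libraries, without overlap. Naive libraries ran from 7.60% to 13.3% and overlapped both, and marker-low libraries ran from 6.78% to 11.9%. Group means ran from 22.9% (TOX-GFP) to 27.3% (late SV40-I) for complex I and from 9.23% (GFP) to 10.7% (marker-low) for complex III. Complex II took 11.9% ± 2.1 in naive libraries (SD, n = 3) and 7.40% ± 0.26 in GFP libraries (SD, n = 2), with no overlap.

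Per length, the nuclear members with the highest and lowest mean RPKM over the groups were Ndufs8 (178) and Ndufb2 (5.45) in complex I, Sdhd (256) and Sdhc (54.1) in complex II, and Uqcr10 (185) and Uqcrfs1 (51.4) in complex III. In complex IV they were Cox6a1 (342) and Cox6b2 (0.880), and in complex V Atp5a1 (674) and Atp5l (1.87). Ndufb2 and Atp5l had summed exons of 5628 and 6443 bases and median levels of 25.6 and 11.6 CPM over the libraries. The part of length in their low RPKM was not tested. Of the isoforms known for narrow tissue use, Cox6a2 (heart and muscle) and Cox6b2 (testis) were members, mainly through the 4 cultured libraries. Cox6a2 was at 5.11 and 6.36 CPM in TOX-GFP and 9.56 and 10.97 CPM in GFP libraries, and at most 4.45 CPM elsewhere. Its common partner Cox6a1 was at 330 to 395 CPM in the same 4 libraries. Cox6b2 was at 1.27 to 2.64 CPM in culture and at most 1.81 CPM elsewhere (late SV40-I 2), so the ranges overlapped. Its common partner Cox6b1 was at 171 to 214 CPM in culture.

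In late SV40-I against OT-I cells, which compares cells that meet the tumour antigen with bystander cells in the same kind of lesion, 3 of 8 mitochondrial members fell and the nuclear median was near 0. Differences are log2 fold changes with standard errors from edgeR's quasi-likelihood test, and a gene was called at a Benjamini-Hochberg adjusted p under 0.05 over all 16404 genes tested. Of the 86 members, 3 fell, all mitochondrial, and 1 nuclear member rose, against 9.02% of all genes called (4.91% higher and 4.11% lower). Members were called at 4.65%, below that background, while the mitochondrial members were called at 37.5% (3 of 8). The median log2 fold change was -1.47 over the 8 mitochondrial members, 0.04 over the 78 nuclear members and -0.04 over all genes. The mitochondrial median was -1.06 without late SV40-I 1 and -2.25 without late SV40-I 2. In the latter fit 6 members fell, with 597 of 17363 genes called higher and 514 lower. The nuclear median was -0.02 under scaling to library totals and ranged from -0.14 to 0.09 without single libraries.

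mt-Cytb was at 147, 296 and 106 CPM in OT-I and at 26.2, 55.2 and 32.8 CPM in late SV40-I libraries. Each late SV40-I library was below each OT-I library. The log2 fold change was -2.19 ± 0.39 (SE, edgeR adjusted p = 0.00355). This call held under every alternative tried, with log2 fold changes from -2.76 to -1.79 and adjusted p up to 0.0304.

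mt-Nd1 was at 59.3, 177 and 63.2 CPM in OT-I and at 13.5, 32.8 and 23.7 CPM in late SV40-I libraries, without overlap, with OT-I 2 far above the other two. It fell by 2.01 on the log2 scale (SE 0.47, edgeR adjusted p = 0.0181). The call ended without OT-I 2 (log2 -1.44, edgeR adjusted p = 0.0803), late SV40-I 1 (-1.74, 0.0784) or late SV40-I 3 (-2.04, 0.0589). mt-Co1 was at 1298, 1786 and 1517 CPM in OT-I and at 274, 822 and 685 CPM in late SV40-I libraries, again without overlap. It fell by 1.31 (SE 0.33, edgeR adjusted p = 0.0235), and the call ended without OT-I 2 (adjusted p = 0.0658) or OT-I 3 (adjusted p = 0.0643).

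The other mitochondrial complex I genes had negative values that missed the threshold, from -1.62 for mt-Nd5 (edgeR adjusted p = 0.0644) to -0.45 for mt-Nd3 (0.684).

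The members called numbered 1 without OT-I 2 and 2 without late SV40-I 1, against 4 with every library. Those fits called 423 genes higher and 449 lower of 17415, and 527 higher and 464 lower of 17502. Without OT-I 3 and late SV40-I 2, the libraries with the most hepatocyte transcripts, 4 members fell and none rose. The mitochondrial median was then -2.13, and of 17042 genes 346 were called higher and 343 lower. Without OT-I 2 as well, 1 member fell. By edgeR 4 of 10 T cell identity markers rose and 1 fell, with sums of 17459 to 19528 CPM in OT-I and 33762 to 35759 CPM in late SV40-I libraries. The endothelial marker Pecam1 fell by 1.59 (SE 0.33, edgeR adjusted p = 0.00817). The erythroid sums above did not overlap between the groups and the hepatocyte sums did. The part of these markers in the mitochondrial values was not tested.

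**Figure D2:**
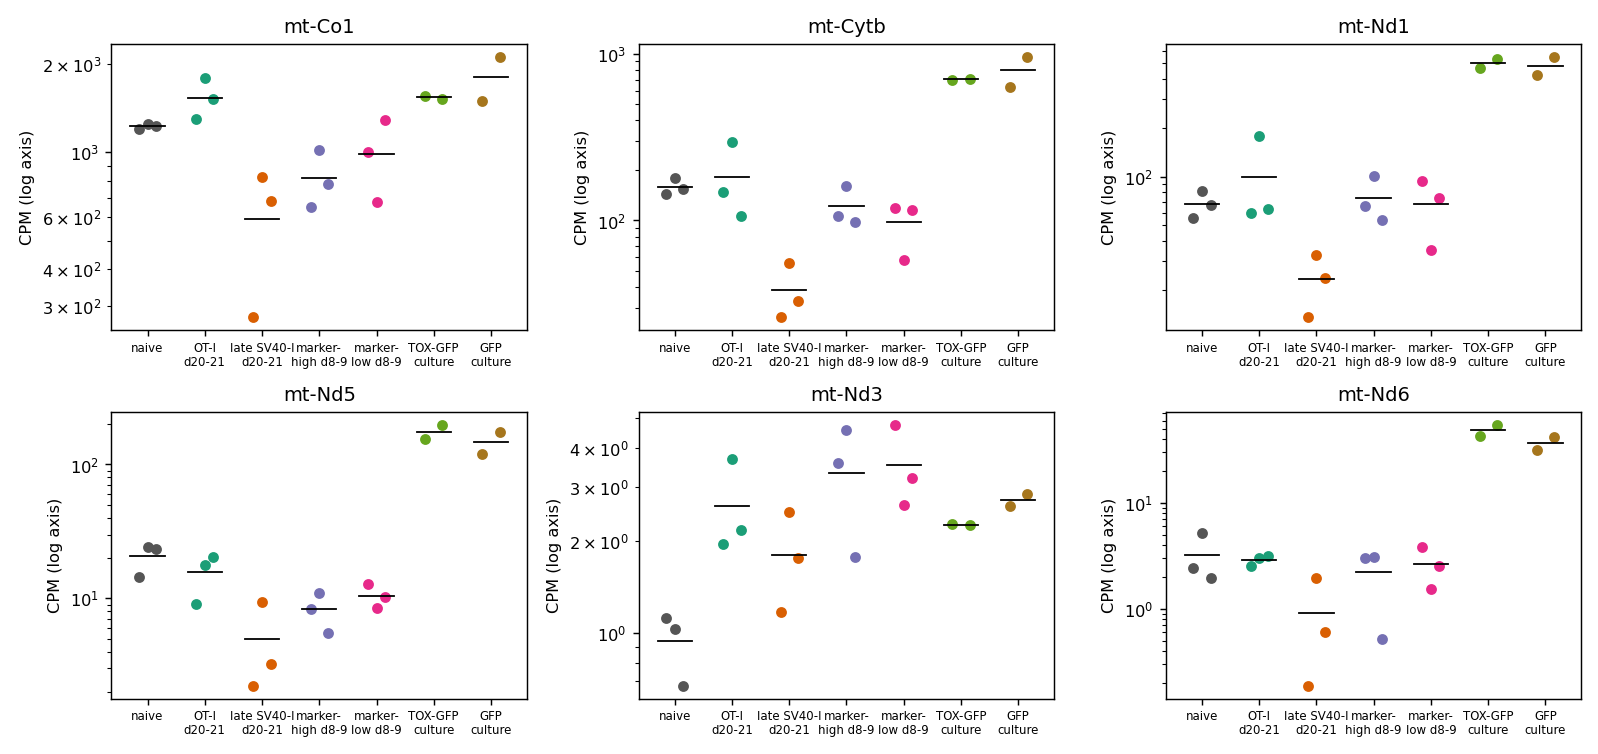
CPM (log axes) of 6 mitochondrial members in each library; points are libraries and bars are group means. The late SV40-I points for mt-Cytb (26.2 to 55.2 CPM) lie below those of every other group, and the cultured points for mt-Cytb, mt-Nd1, mt-Nd5 and mt-Nd6 lie above every ex vivo point.

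Against naive cells, late SV40-I cells had 6 members lower and 1 higher, with 18.0% of all genes called (11.1% higher and 6.86% lower) and 8.14% of members. The medians were -1.53 over the mitochondrial and -0.34 over the nuclear members, against 0.05 over all genes, and the nuclear median was 0.08 without naive 2. The comparison shares the late SV40-I libraries with the one above. mt-Cytb was at 144, 179.6 and 155 CPM in naive libraries, above every late SV40-I library. It fell by 2.00 (SE 0.39, edgeR adjusted p = 0.00332) and was called under every alternative, with adjusted p up to 0.0181.

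mt-Nd5 was at 14.4, 24.2 and 23.4 CPM in naive and 2.24, 9.37 and 3.22 CPM in late SV40-I libraries. It fell by 2.00 (SE 0.51, edgeR adjusted p = 0.0155), and the call ended without naive 2 (adjusted p = 0.0508), late SV40-I 1 (0.0524) or late SV40-I 3 (0.0630). mt-Nd1 fell by 1.47 (SE 0.47, edgeR adjusted p = 0.0441), and removing any library but late SV40-I 2 ended the call (adjusted p from 0.0666 to 0.146). mt-Co1 had a log2 fold change of -0.98 that missed the threshold (SE 0.32, edgeR adjusted p = 0.0523), while its naive values of 1203, 1251 and 1225 CPM all lay above the late SV40-I values.

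Among nuclear members, Cox7a2l was at 282, 342 and 222 CPM in naive and 127, 153 and 159 CPM in late SV40-I libraries. It fell by 0.87 (SE 0.24, edgeR adjusted p = 0.0259), and the call ended without naive 1 (0.0666), naive 2 (0.109), late SV40-I 1 (0.0920) or late SV40-I 2 (0.0593). Uqcrc2, a core protein of complex III, had 422, 419 and 364 CPM against 257, 262 and 222 CPM and fell by 0.62 (SE 0.19, edgeR adjusted p = 0.0384). Atp5b had 2168, 2086 and 2251 CPM against 1642, 1424 and 1024 CPM and fell by 0.59 (SE 0.17, adjusted p = 0.0279). The naive and late SV40-I values of these genes did not overlap. The Uqcrc2 call ended when any of the 6 libraries was left out (adjusted p up to 0.117), and that of Atp5b without any of them except late SV40-I 1 (adjusted p up to 0.0994). The members called numbered 2 without naive 1, late SV40-I 1 or late SV40-I 3, and 3 without naive 2 or naive 3.

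The naive cells carried the SV40-I receptor. OT-I and naive cells thus differ in receptor, sort and exposure to the lesion, which cannot be told apart. OT-I against naive cells showed 1 member lower and none higher, with 7.35% of all genes called (5.06% higher and 2.29% lower). It was Cox7a2l, with 112, 98.1 and 130 CPM in OT-I libraries, all below the naive ones. It fell by 1.29 (SE 0.25, edgeR adjusted p = 0.00575), and no removal of 1 library ended the call, which was lost with late SV40-I 2, OT-I 2 and OT-I 3 all left out (log2 -1.24, adjusted p = 0.183). The mitochondrial median was 0.26, and -0.09 without OT-I 2. By edgeR 0 of the 8 passed, with 1 at an unadjusted p under 0.05. mt-Cytb had a log2 fold change of 0.19 ± 0.38 (SE, edgeR adjusted p = 0.852) and mt-Co1 of 0.33 ± 0.32 (SE, adjusted p = 0.640). The nuclear median was -0.30, with all 36 nuclear complex I values and 70 of 78 nuclear values below 0, and it was 0.02 without naive 2.

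**Figure D3:**
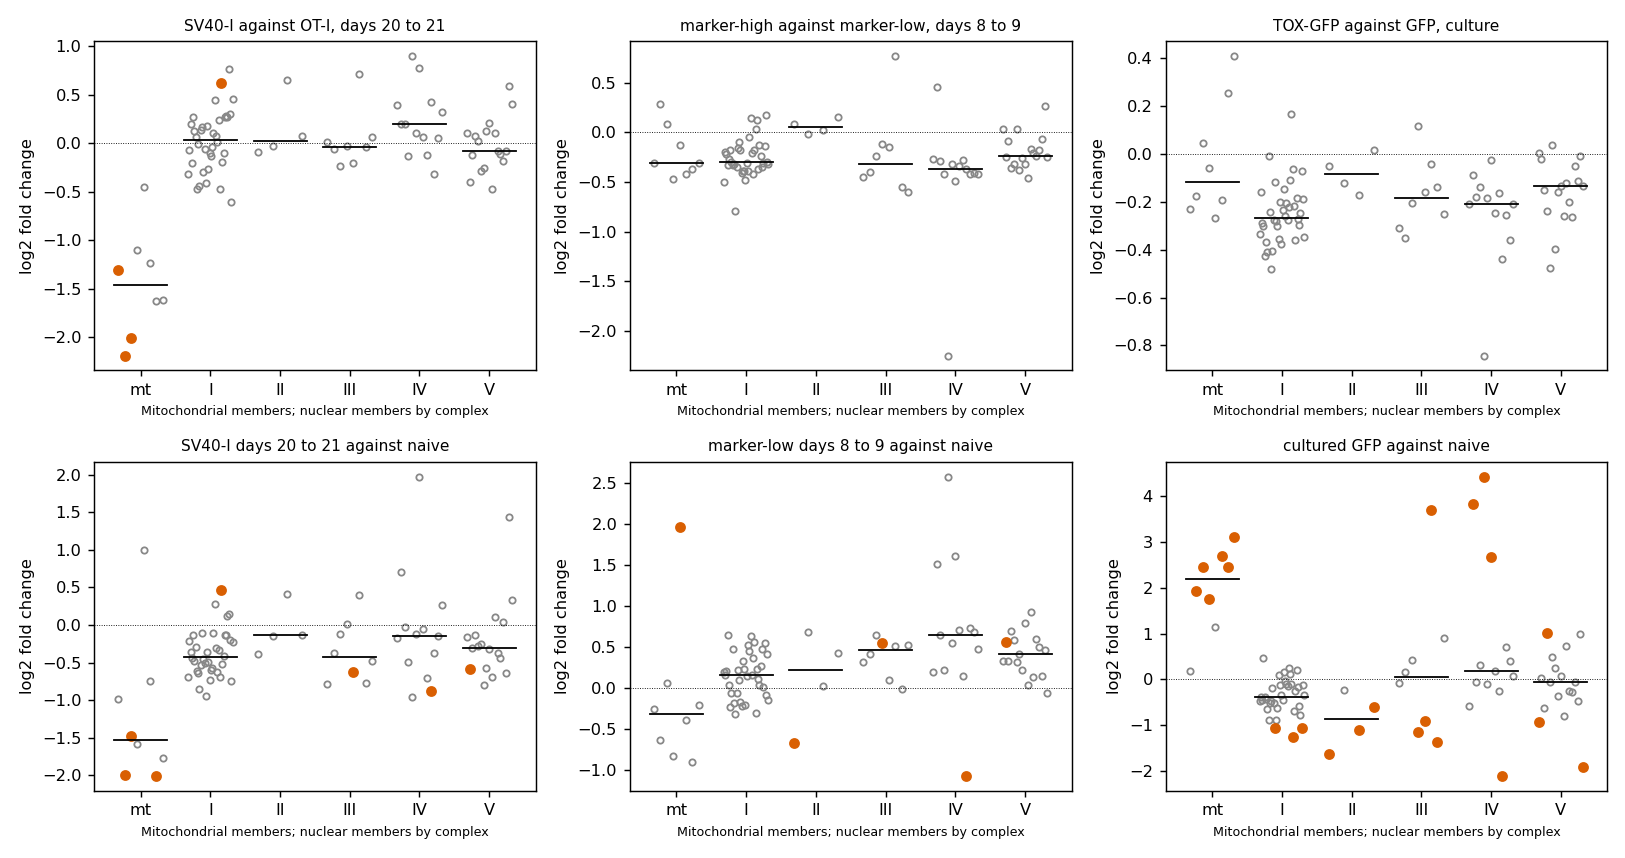
Log2 fold changes (first named group minus second; vertical scales differ) of the 8 mitochondrial members (mt) and of the nuclear members by complex in 6 comparisons. Filled points passed an adjusted p of 0.05, open points did not, and bars are medians; in the first panel the mitochondrial members lie between -2.19 and -0.45, and in the last between 0.18 and 3.11.

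At days 8 to 9, marker-high and marker-low cells were compared, which asks how cells high and low for PD1, LAG3 and CD39 differ. No member was called by edgeR, with 1.19% of all genes called (0.475% higher and 0.719% lower), 0 members at an unadjusted p under 0.05 (1846 of 16404 genes), and 0 members called by DESeq2 (329 genes higher and 393 lower). The median was -0.31 over the mitochondrial and -0.28 over the nuclear members, and 72 of 86 values were below 0. Without marker-low 1 these medians were 0.04 and 0.01, and without marker-high 3 the mitochondrial median was 0.00. mt-Cytb was at 106, 162 and 98.2 CPM in marker-high and 120, 58.3 and 115 CPM in marker-low libraries, with a log2 fold change of 0.28 ± 0.38 (SE, edgeR adjusted p = 0.872). The ranges overlapped for it and for mt-Co1 (650, 1015 and 778 CPM against 998, 679 and 1284 CPM).

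Each day 8 to 9 group was also compared with naive cells, with which both share the control. In marker-high cells 3 members rose and 2 fell, with 23.4% of all genes called (14.3% higher and 9.10% lower) and 5.81% of members, and in marker-low cells 3 rose and 2 fell, with 16.8% of all genes called (10.6% higher and 6.21% lower). With upper-quartile scaling the counts were 2 up and 3 down in marker-high and 1 up and 2 down in marker-low cells, and that scaling moved the median of all genes in the marker-high comparison from 0.06 to -0.06. The nuclear median was 0.04 in marker-high (-0.12 under that scaling, and from -0.16 to 0.42 without single libraries) and 0.31 in marker-low cells, and the mitochondrial median -0.54 and -0.32.

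Sdha, the catalytic subunit of complex II, was at 1074, 884 and 1236 CPM in naive, 657, 641 and 764 CPM in marker-high and 563, 718 and 633 CPM in marker-low libraries. Every day 8 to 9 library was below every naive library. Sdha fell by 0.60 (SE 0.15, edgeR adjusted p = 0.0107) in marker-high and by 0.68 (SE 0.15, adjusted p = 0.00769) in marker-low cells. The former call ended without naive 3 (0.0542) or marker-high 2 (0.0504), and the latter held under every alternative. The other complex II genes were not called: Sdhb, the iron-sulfur subunit, had log2 fold changes of 0.65 and 0.67, the membrane anchor Sdhc 0.04 and 0.02, and the other anchor Sdhd 0.57 and 0.42, in marker-high and marker-low cells.

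Cox7a2l was at 97.6, 93.4 and 114 CPM in marker-high and 154, 85.3 and 147 CPM in marker-low libraries, below every naive library. It fell by 1.45 (SE 0.25, edgeR adjusted p = 0.00125) and by 1.07 (SE 0.24, adjusted p = 0.0111), and both calls held under every alternative. Windows shared with other genes made up 17.7% of Cox7a2l and 0% of Sdha.

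**Figure D4:**
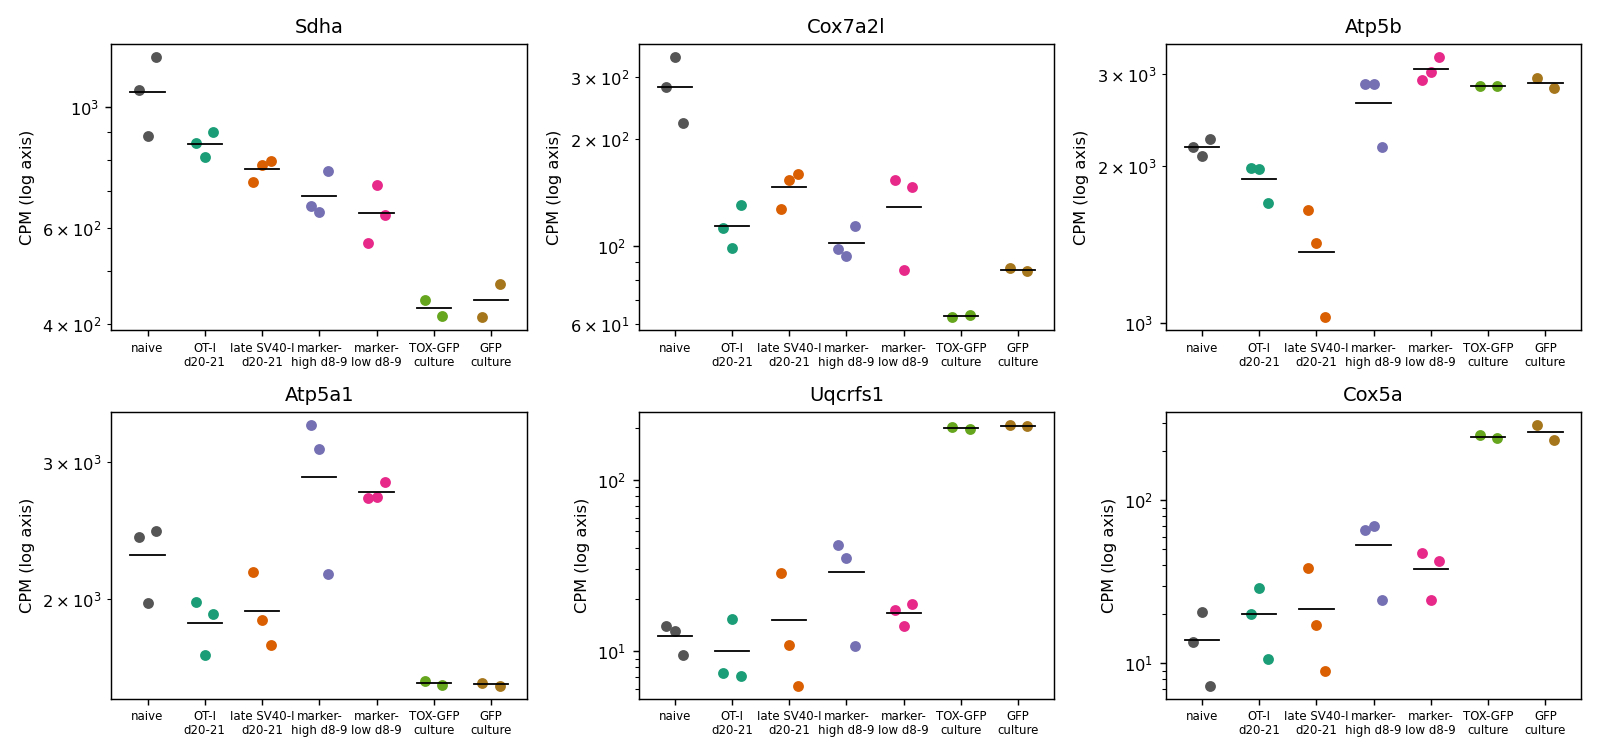
CPM (log axes) of 6 nuclear members in each library; points are libraries and bars are group means. Cox7a2l is highest in the 3 naive libraries (222 to 342 CPM). Sdha is at 884 to 1236 CPM in naive libraries, which overlap OT-I (OT-I 3 at 899 CPM). Uqcrfs1 and Cox5a are highest in the 4 cultured libraries (199 to 208 CPM and 234 to 289 CPM).

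Uqcrc1, the other core protein of complex III, was at 855, 696 and 749.6 CPM in naive, 1074, 1032 and 921 CPM in marker-high and 1066, 991 and 1156 CPM in marker-low libraries. It rose by 0.42 (SE 0.14, edgeR adjusted p = 0.05 after rounding) and 0.54 (SE 0.14, adjusted p = 0.0238). Its marker-high call ended without any of those libraries except marker-high 3 (adjusted p up to 0.151) and its marker-low call without any except naive 1 (up to 0.0883). Cox5a, a subunit of complex IV, rose in marker-high cells from 13.6, 20.8 and 7.31 CPM to 66.2, 70.0 and 24.5 CPM. Its log2 fold change was 1.96 ± 0.60 (SE, edgeR adjusted p = 0.0321), and the call ended without naive 1, naive 3, marker-high 1 or marker-high 2 (adjusted p from 0.0880 to 0.116). Atp5b rose in marker-low cells to 2924, 3027 and 3233 CPM, by 0.56 (SE 0.17, edgeR adjusted p = 0.0387), and leaving out any of the 6 libraries ended the call (adjusted p up to 0.119).

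mt-Nd3 was at 1.12, 1.03 and 0.677 CPM in naive, 3.58, 4.58 and 1.78 CPM in marker-high and 4.75, 2.61 and 3.19 CPM in marker-low libraries. It rose by 1.83 (SE 0.52, edgeR adjusted p = 0.0223) and 1.96 (SE 0.52, adjusted p = 0.0219). Leaving out any naive library, marker-high 1 or 2, or marker-low 1 ended these calls (adjusted p from 0.0502 to 0.0930), and 98.0% of its windows are shared with a chr1 copy. In the marker-high comparison, leaving out marker-high 3 gave 2150 genes called higher and 1431 lower of 17464. Leaving out marker-high 2 gave 1669 higher and 745 lower of 17441. The members called numbered 8 without marker-high 3, 1 without marker-high 2, and 2 without marker-high 1, naive 1 or naive 3. In the marker-low comparison they numbered 2 without naive 2, naive 3 or marker-low 1 and 3 without naive 1, marker-low 2 or marker-low 3, against 5.

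Late SV40-I (days 20 to 21) was compared with marker-high cells (days 8 to 9). Only the latter were labelled as sorted on PD1, LAG3 and CD39, so day and sort cannot be told apart. Of the members 2 fell and none rose, with 5.33% of all genes called (1.76% higher and 3.57% lower). mt-Cytb fell by 1.64 (SE 0.39, edgeR adjusted p = 0.0280). Its late SV40-I values of 26.2 to 55.2 CPM lay below the marker-high values of 98.2 to 162 CPM. The call ended without late SV40-I 1 (0.0987), late SV40-I 3 (0.114), marker-high 1 (0.0661) or marker-high 2 (0.133). Atp5b fell by 0.90 (SE 0.17, edgeR adjusted p = 0.00880), from 2869, 2875 and 2168 CPM to 1642, 1424 and 1024 CPM. The Atp5b call ended without late SV40-I 2 (edgeR adjusted p = 0.0506) and without the libraries rich in hepatocyte transcripts. It also ended with late SV40-I 2, OT-I 2 and OT-I 3 left out. A fit of the 2 groups alone ended both calls. The members called numbered 8 without marker-high 3, where 772 of 17464 genes were called higher and 897 lower. They numbered 1 without any other of the 6 libraries, with 50 to 167 genes called higher and 261 to 388 lower. Upper-quartile scaling moved the median of all genes from 0.04 to 0.11. Macrophage markers summed to 37.8 to 311 CPM in late SV40-I and 985 to 2230 CPM in marker-high libraries, 2 of 9 fell (Cd68 and Marco), and their part was not tested.

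In culture, TOX-GFP was compared with GFP cells, which asks what forced TOX does outside the animal. No member was called by edgeR, with 0% of all genes called, and 0 members by DESeq2, which called 418 genes higher and 142 lower in all. An unadjusted p under 0.05 was found for 13 of 86 members and 1906 of 14614 genes. The smallest of these p belonged to Ndufa6, a complex I subunit, at -0.48 ± 0.12 (SE, edgeR adjusted p = 0.253), Cox7a2l at -0.44 ± 0.12 (SE, adjusted p = 0.256) and Cox6a2 at -0.84 ± 0.23 (SE, adjusted p = 0.269). These 3 genes were chosen after their values were seen. Cox7a2l was at 62.6 and 63.5 CPM in TOX-GFP and 86.2 and 84.4 CPM in GFP libraries, without overlap.

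Of the 78 nuclear values 73 were below 0, with a median of -0.21 against 0.01 over all genes, and the 8 mitochondrial values had a median of -0.12. The nuclear median was -0.12 without GFP 1 and -0.32 without GFP 2. Between the GFP libraries themselves, nuclear members had a median log2 difference of 0.19 in GFP 1 relative to GFP 2. mt-Cytb was at 699 and 711 CPM in TOX-GFP and 635 and 956 CPM in GFP libraries, and mt-Nd1 at 466 and 534 against 421 and 548 CPM. The ranges overlapped for both. Without GFP 2, 18 members were lower and none higher, with 1021 genes called higher and 379 lower in all. That fit has 1 GFP library, which is assumed to vary like the TOX-GFP pair.

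Cultured GFP cells were set against naive cells in a fit of all 19 libraries and 18608 genes. The groups differ in culture, activation, transduction and handling, which cannot be told apart. By edgeR 8 of 8 erythroid and platelet, 7 of 9 macrophage, 4 of 4 tested B cell and 8 of 10 T cell identity markers fell. T cell identity sums were 28995 to 38886 CPM in naive and 11522 to 12723 CPM in GFP libraries, and the part of these markers was not tested. The fits without GFP 1 or GFP 2 hold 1 GFP library, which is assumed to vary like the other groups. Of the members 11 rose and 12 fell, with 32.6% of all genes called (3268 genes higher, or 17.6%, and 2789 lower) and 26.7% of members. Scaling moved the median of all genes from 0.00 to 0.26 with library totals, where 15 members rose and 10 fell, and to -0.30 with upper-quartile factors, where 8 rose and 18 fell. The mitochondrial median was 2.20 (1.78 to 2.57 under these scalings). The nuclear median was -0.25, changed sign with library totals (0.15), and was 0.23 without naive 2.

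Of the 8 mitochondrial members 6 rose. mt-Nd6 was at 31.4 and 41.7 CPM in GFP libraries against 2.44, 5.24 and 1.96 CPM in naive ones. It rose by 3.11 (SE 0.80, edgeR adjusted p = 0.00706). mt-Nd4 rose by 2.70 (SE 0.54, adjusted p = 0.00136), mt-Nd1 by 2.45 (SE 0.48, edgeR adjusted p = 0.000991), mt-Nd5 by 2.45 (SE 0.49, adjusted p = 0.00129) and mt-Cytb by 1.94 (SE 0.40, adjusted p = 0.00156). These 5 calls held under every alternative. mt-Nd2 rose by 1.76 (SE 0.58, edgeR adjusted p = 0.0307), and its call ended without naive 1, naive 3, GFP 1 or GFP 2 (adjusted p from 0.0728 to 0.119). mt-Co1 had 0.18 ± 0.35 (SE, edgeR adjusted p = 0.751), while its GFP values of 1490.2 and 2110 CPM lay above the naive values.

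Nuclear members moved both ways. Uqcrfs1, the Rieske iron-sulfur protein of complex III, was at 208 and 205 CPM in GFP libraries against 13.9, 13.1 and 9.43 CPM in naive ones. It rose by 3.70 (SE 0.58, edgeR adjusted p = 0.000167). Cox5a rose by 3.84 (SE 0.62, edgeR adjusted p = 0.000219), to 289 and 234 CPM. Both calls held under every alternative. Cox6a2 rose by 4.43 (SE 1.48, edgeR adjusted p = 0.0312) and Cox6b2 by 2.66 (SE 0.95, adjusted p = 0.0411), and both count among the 11 members that rose. The Cox6a2 call ended without naive 1 or naive 3. That of Cox6b2 ended without any 1 naive library, with upper-quartile factors, with no filter and with the replicate number as a block. As these members passed the level mainly through culture, their differences follow from the choice, and their p-values are no support for a rise. Atp5d, the delta subunit of ATP synthase, rose by 1.02 (SE 0.31, edgeR adjusted p = 0.0191), which ended without naive 1, naive 3 or GFP 1 (adjusted p up to 0.0915).

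Complex II fell most broadly, with 3 of 4 genes called lower. Sdha was at 411 and 472 CPM in GFP libraries, below every naive library. It fell by 1.64 (SE 0.16, edgeR adjusted p = 3.22e-06) and was called under every alternative. Sdhc fell, at -1.10 (SE 0.28, edgeR adjusted p = 0.00652) and Sdhd by 0.61 (SE 0.23, adjusted p = 0.0495). The Sdhc call ended without GFP 1 (0.0509) or GFP 2 (0.106), and that of Sdhd ended with library totals (log2 -0.23) and without naive 1, naive 2, GFP 1 or GFP 2 (adjusted p up to 0.291). Sdhb had -0.23 ± 0.31 (SE, edgeR adjusted p = 0.612).

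The largest falls outside complex II were in Cox7a2l, by 2.11 (SE 0.28, edgeR adjusted p = 4.36e-05), and Atp5sl, by 1.92 (SE 0.23, adjusted p = 1.94e-05). Uqcrc1 fell by 1.16 (SE 0.15), and these 3 calls held under every alternative, as did those of Atp5a1 (-0.93) and Ndufv1 (-1.07). Uqcrh, the hinge protein of complex III, fell by 1.36 (SE 0.46, edgeR adjusted p = 0.0317), which ended without naive 2, GFP 1 or GFP 2 (adjusted p up to 0.213). Ndufa9 (-1.07) and Uqcrc2 (-0.91) were also among the 12. Uqcrc2 lost its call without GFP 1 (0.0736), and Ndufa9 without GFP 1 (0.0547) or GFP 2 (0.0717). The members called numbered 14 without GFP 1.

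Promoters of 2 members called lower in GFP against naive cells are shown, with a motif each, since members of this chain are known targets of ETS factors such as GABP and of YY1. RefSeq promoter windows of 300 bases (GRCm38.p6, 250 bases before to 50 after the start) matched 63 of 78 nuclear members, with 68 windows. Both strands were searched for 2 exact motifs. The ETS motif (CCGGAAG) was in 23.53% of member windows and 8.86% of all 32851 windows, and YY1 (AAGATGGCG) in 10.29% and 1.4%. Atp5j was the 1 member with both. Of the 12 members called lower, Sdhd and Uqcrh had the ETS motif and Ndufa9 that of YY1. Of all 63 matched members, 16 had the ETS motif and 7 that of YY1. A link between motif and call was not tested. The motif is in capitals in Sdhd (chr9:50603800-50604099, minus strand, the ETS motif on its other strand) and Ndufa9 (chr6:126849095-126849394, minus strand, YY1). A match describes letters in the window, not a site of binding.
Sdhd: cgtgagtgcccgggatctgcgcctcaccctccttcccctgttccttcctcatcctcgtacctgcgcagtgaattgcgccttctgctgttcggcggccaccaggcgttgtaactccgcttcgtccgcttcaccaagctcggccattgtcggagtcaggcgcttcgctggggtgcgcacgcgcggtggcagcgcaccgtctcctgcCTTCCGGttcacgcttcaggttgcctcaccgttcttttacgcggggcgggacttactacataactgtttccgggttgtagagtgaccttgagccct
Ndufa9: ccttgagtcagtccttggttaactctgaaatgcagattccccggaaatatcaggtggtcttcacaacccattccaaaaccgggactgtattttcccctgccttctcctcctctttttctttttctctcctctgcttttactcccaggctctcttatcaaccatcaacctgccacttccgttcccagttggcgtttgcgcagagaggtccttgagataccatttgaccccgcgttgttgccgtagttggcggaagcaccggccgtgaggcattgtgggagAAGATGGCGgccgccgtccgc

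Nuclear members also varied together between libraries of the same group, along with transcript length. A gene's length here is the median over its annotated protein-coding transcripts, so a gene with a long main transcript can count as short. Uqcrc1, for example, had a median of 533 bases and a longest transcript of 1653. Over the 77 nuclear members with such a length the median was 659 bases, and 41 members were under 700 bases. Relative to the other libraries of their group, these 41 had a median log2 difference of 1.24 in naive 2 and -0.90 in naive 3. It was 0.82 in marker-low 1, -1.32 in marker-low 2 and -0.72 in marker-high 3. The 5 members over 1500 bases had medians of -0.08, 0.08, -0.04, -0.03 and -0.59 in these libraries, and 541 other genes under 700 bases had 0.23, -0.28, 0.23, -0.35 and -0.28. The long members were not alike. Atp5g1 (93.1, 177 and 66.2 CPM) and Ndufb2 (24.9, 47.9 and 18.1 CPM) moved in naive libraries as the short ones did. Atp5a1, Atp5b and Sdha were instead lowest in naive 2 among the naive libraries. The cultured libraries stayed within 0.22 of each other's short members. Cox6a1, a short transcript, shows it: 182, 356 and 130 CPM in naive and 338, 116 and 288 CPM in marker-low libraries. Marker-low 2 also had the highest neutrophil (1379 CPM) and macrophage (2303 CPM) sums of its group and the lowest T cell identity sum (13025 CPM against 25558 and 23686 CPM), and marker-high 3 the highest erythroid sum of its group. Between groups, Spearman's rho of the log2 fold change with length over the 77 genes ran from -0.16 to 0.38 and was 0.03 in late SV40-I against OT-I cells, where rho with GC content was 0.46. Genes are not independent replicates, and these are descriptions. In late SV40-I against naive cells the short members had a median of -0.37 and the long ones of -0.39. In TOX-GFP against GFP cells these medians were -0.24 and -0.05, with a rho of 0.21. In marker-high against marker-low cells they were -0.32 and -0.24, with a rho of 0.38. The part of length in these shifts was not tested.

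**Figure D5:**
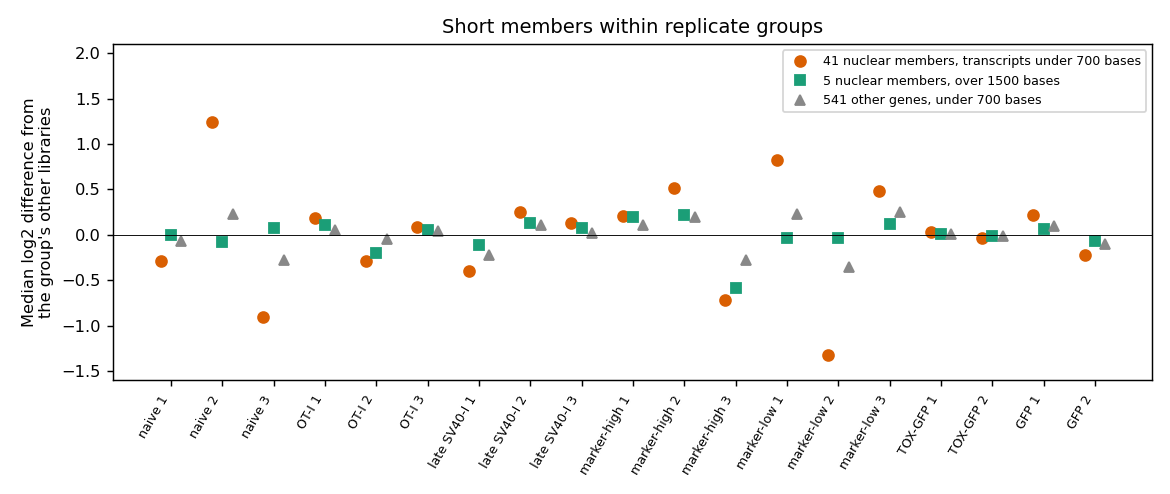
Median log2 difference of each library from the other libraries of its group for 41 short nuclear members (circles), 5 long nuclear members (squares) and 541 other short genes (triangles). The circles reach 1.24 in naive 2 and -1.32 in marker-low 2, where the squares are at -0.08 and -0.03.

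The 13 lists of other mitochondrial genes held 181 names, of which 167 were tested ex vivo. In late SV40-I against OT-I cells 4 rose and 4 fell (4.79%, against 9.02% of all genes). The 13 nuclear regulators had a median of -0.83 with 1 called lower: Myc, a transcription factor that drives growth, at 121 ± 40.6 CPM against 299.8 ± 22.4 CPM (SD, n = 3 each) fell by 1.25 (SE 0.25, edgeR adjusted p = 0.00670). Of 10 assembly genes of complexes II and III, 1 rose: Uqcc1, needed for complex III, at 215 ± 6.57 against 106 ± 14.7 CPM, by 1.07 (SE 0.20, edgeR adjusted p = 0.00386). Of 13 stress and mitophagy genes 1 rose and 2 fell: the chaperones Hspd1, by 1.67 (SE 0.36, adjusted p = 0.0118), and Hspa9, by 1.11 (SE 0.27, adjusted p = 0.0201). Medians were -0.17 over 17 genes for copying and transcribing mitochondrial DNA, -0.21 over 20 for mitochondrial RNA processing and -1.22 over the 2 mitochondrial ribosomal RNAs.

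In late SV40-I against naive cells 4 list genes rose and 9 fell (7.78%, against 18.0% of all genes). Tfam, which packs and transcribes mitochondrial DNA, fell by 0.87 (SE 0.26, edgeR adjusted p = 0.0323), from 64.3 ± 10.1 to 33.4 ± 7.68 CPM. Ppargc1b, a coactivator of mitochondrial genes, fell by 1.03 (SE 0.27, adjusted p = 0.0199). Lyrm7, which helps to mature the Rieske protein, fell by 2.74 (SE 0.54, edgeR adjusted p = 0.00336). In OT-I against naive SV40-I cells Lyrm7 fell by 2.95 (SE 0.54, edgeR adjusted p = 0.00457). At days 8 to 9, 15 list genes rose and 10 fell in marker-high cells (14.97%, against 23.4% of all genes), and 13 rose and 7 fell in marker-low cells (11.98%, against 16.8%). Fh1, fumarase of the citric acid cycle, rose by 1.18 (SE 0.17, edgeR adjusted p = 0.000416) and 1.01 (SE 0.17, adjusted p = 0.00189). Myc was the 1 list gene called between marker-high and marker-low cells, at -1.20 (SE 0.25, edgeR adjusted p = 0.0366), lower in marker-high cells.

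In cultured GFP against naive cells 40 list genes rose and 31 fell (42.51%, against 32.6% of all genes). Lrpprc, which stabilizes mitochondrial messenger RNA, rose by 4.67 (SE 0.59, edgeR adjusted p = 2.98e-05), from 4.83 ± 1.27 CPM (SD, n = 3) to 159 ± 36.0 CPM (SD, n = 2). Cyc1, the cytochrome c1 subunit of complex III whose name the rule does not match, rose by 2.68 (SE 0.59, adjusted p = 0.00259). Tmem70, an assembly factor of ATP synthase, rose by 4.69 (SE 0.66, edgeR adjusted p = 7.02e-05). Ogdh, a citric acid cycle enzyme, fell by 2.02 (SE 0.21, adjusted p = 5.71e-06).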

How the data were processed

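Each deposited table gives raw counts of read pairs by gene name for 1 library. The authors counted them with featureCounts 1.6.2 in paired-end mode against GENCODE M17 on GRCm38.p6, per the file headers, with no option for strand, overlapping genes or reads matching several places. The submitters' processing notes also name FastQC, STAR and DESeq2, with versions not given in the sources used here. Per the labels' protocols, 2 to 10 ng of RNA were amplified before sequencing, with no molecular identifiers named, so precision from counts covers counting error only.

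The test was edgeR 4.0.16 in R 4.3.3: genes kept by filterByExpr, TMM factors, the quasi-likelihood fit in its robust form, and Benjamini-Hochberg adjustment over all genes of a comparison. A fit held the 15 ex vivo libraries (16404 genes), another the 4 cultured ones (14614 genes) and the last all 19 (18608 genes) for GFP against naive. DESeq2 1.42.0, library totals, upper-quartile factors, no filter, a minimum of 50 counts, a fit of the 2 groups compared, the replicate number as a block, each library left out, and libraries rich in hepatocyte transcripts left out were alternatives. Scripts were tested on simulated data. Standard errors come from the F statistic. Mean ± SD refer to CPM.

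Members and lists were chosen with earlier results of these data known, and the lists support nothing by themselves. Named genes are the mitochondrial genes, up to 6 called members each way per comparison, the nuclear members of highest and lowest RPKM per complex, complex II, isoforms of narrow tissue use and, from the lists, called genes with the 2 smallest p of a list, of which examples are given. Gene coordinates are those of the tables, and shared windows came from GENCODE M21. A member that enters the counts is not reported here by itself.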

Additional observations from a re-analysis of the deposited data

Results flagged for a closer look

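By the direct test of the 2 groups, effects against naive cells differed between late SV40-I and marker-high cells for 2 members. These groups differ in day (20 to 21 against 8 to 9) and in the marker sort, which cannot be told apart. For Atp5b the difference was -0.90 on the log2 scale (edgeR adjusted p = 0.00880), from -0.59 in late SV40-I cells and 0.31 in marker-high cells against naive cells. For mt-Cytb it was -1.64 (edgeR adjusted p = 0.0280): against naive cells it fell by 2.00 in late SV40-I cells and had -0.36 in marker-high cells. The Atp5b call ended without late SV40-I 2 (edgeR adjusted p = 0.0506), and that of mt-Cytb without late SV40-I 1 (0.0987), late SV40-I 3 (0.114), marker-high 1 (0.0661) or marker-high 2 (0.133). Both ended in a fit of the 2 groups alone. That of Atp5b also ended without the libraries rich in hepatocyte transcripts, and with late SV40-I 2, OT-I 2 and OT-I 3 left out.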

How the results depend on the processing

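Of 47 called member values, 19 were called under every alternative, 20 stayed called without any 1 library, 0 reversed, and 155 of 616 alternative values lost the call. Members called under other settings were as follows. In late SV40-I against OT-I cells, a fit of the 2 groups alone and one that omitted late SV40-I 2 with OT-I 2 and 3, an alternative added once the data had been seen, gave 1 each, and leaving out single libraries gave 1 to 6. In late SV40-I against naive cells those 2 settings gave 4 each, and single removals 2 to 7. In OT-I against naive cells DESeq2 gave 3, library totals and the stricter filter 2 each, and the 3 libraries left out 0. Marker-high against naive gave 3 with no filter and 1 to 8 without single libraries. Marker-low against naive gave 3 with upper-quartile factors and with the 2 groups alone, 2 with no filter, and 2 to 3 without single libraries. Late SV40-I against marker-high gave 5 with DESeq2, 0 with the 2 groups alone, 1 without libraries rich in hepatocyte transcripts, 1 without the 3 libraries, and 1 to 8 without single libraries. TOX-GFP against GFP gave 0 to 18, and GFP against naive 14 to 24, without single libraries. With CPM over TMM-scaled library sizes the mean mitochondrial sum was 1589 in naive and 2617 in TOX-GFP libraries, and the nuclear sum 13746 in late SV40-I, 12646 in TOX-GFP and 13303 in GFP libraries. The number of all genes called moved too. In late SV40-I against OT-I cells, the 2 groups alone gave 852 genes higher and 597 lower of 14024. In late SV40-I against marker-high cells, DESeq2 gave 943 higher and 1215 lower of 16404, and the 2 groups alone 61 and 264 of 13689. In marker-high against naive cells, no filter gave 1806 higher and 1239 lower of 28745. The causes were not tested.

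The labels do not say whether replicate numbers pair the samples. Deviations from group means correlated from -0.218 to 0.273 (median 0.017) between same-numbered ex vivo libraries. Between differently numbered ones they ran from -0.414 to 0.359 (median -0.018). The cultured value was 0.046, which cannot decide pairing, since deviations within a group of 2 mirror each other. With the replicate number as a block, 5 members were called in late SV40-I against OT-I, 9 in late SV40-I against naive, 1 in OT-I against naive, 5 in marker-high and 6 in marker-low against naive, 2 in late SV40-I against marker-high, 21 in GFP against naive and 0 in the other comparisons. Depth limits mt-Nd3, mt-Nd6, Cox6a2 and Cox6b2, which had few counts in several libraries.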
